A study of Homo sapiens with 6 samples.

Results

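Here 10 genes were followed: those encoding the enzymes that methylate lysine 9 of histone H3 (H3K9) and the proteins that recruit, stabilise or read out this mark, namely SETDB1, SETDB2, ATF7IP, TRIM28, SUV39H1, SUV39H2, EHMT1, EHMT2, CBX5 and MPHOSPH8. They were chosen by name, and all 10 had counts in every library and passed the filter on low counts, out of 61014 genes with a row in the table and 20442 genes tested. RNA was sequenced from MDA-MB-231, a mesenchymal triple-negative human breast cancer line, made resistant to paclitaxel, a drug that stabilises microtubules. By the study's account, the cells had been sorted by FACS on aldehyde dehydrogenase (ALDH) activity. The sort gave breast cancer stem-like cells (BCSC, ALDH+, n = 3) and the remaining cells (non-BCSC, ALDH−, n = 3). On that account both groups shared the line and the drug resistance and differed in the sort. Among the sample titles, only those of BCSC name the line and the resistance. The labels name all 6 libraries breast cancer stem cells and set the groups apart in the sample titles. Nothing states that the 3 libraries of a group came from separate cultures, and the p-values measure only the spread between these libraries.

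H3K9 methylation is a mark of silent chromatin. KRAB zinc finger proteins bind DNA and recruit TRIM28, which brings SETDB1 to retroelements and other sites; ATF7IP keeps SETDB1 in the nucleus and protects it from degradation. SUV39H1 and SUV39H2 methylate H3K9 in the heterochromatin around centromeres, and EHMT2 (G9a) and EHMT1 (GLP) work as a pair that mono- and dimethylates H3K9 in euchromatin. CBX5 (HP1α) binds the methylated lysine through its chromodomain, and MPHOSPH8 (MPP8) is the H3K9me3-binding subunit of the HUSH silencing complex, which acts with SETDB1.

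Library depth ranged from 9898588 to 21215352 counts, and every BCSC library was deeper than every non-BCSC library. A floor of 3 counts was worth 0.141 to 0.303 CPM (a count relative to its library size). Markers of the line (VIM, CD44, AXL, MSN, LGALS1, CAV1 and S100A4) summed to 6774 to 8102 CPM in BCSC and to 4279 to 5830 CPM in non-BCSC. The 6 genes listed as low or absent in this line (ESR1, PGR, CDH1, EPCAM, KRT8 and GATA3) summed to 28.1 to 31.3 CPM in BCSC and 96.4 to 106 CPM in non-BCSC. Much of the non-BCSC sum was KRT8, with 8.47, 6.46 and 4.84 CPM in BCSC and 68.7, 58.4 and 48.7 CPM in non-BCSC. Of the 6 genes, 2 were lower in BCSC at an edgeR adjusted p under 0.05. In the same order of groups, 3 leukocyte markers summed to 0.783 to 1.45 and 14.2 to 23.4 CPM, and 3 fibroblast markers to 4.50 to 9.06 and 15.4 to 36.0 CPM. The 2 endothelial markers with a row, of 3, summed to 34.1 to 50.9 and 57.8 to 96.6 CPM. The 391 olfactory receptor genes, which breast cells are not known to transcribe, summed to 37.1, 53.1 and 146 CPM in BCSC and to 521, 681 and 1183 CPM in non-BCSC. This olfactory receptor signal was thus higher in every non-BCSC library. Fold change across genes also moved with GC content (Spearman's rho 0.545 over 20442 genes, which are not independent replicates). The part of these differences in the results below was not tested beyond the corrected values given beside them.

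The table holds 1 row per transcript, and for some genes the transcripts that carried the counts differed between the sorted fractions. Such shifts also arose within a group. The share of EHMT1 assigned to EHMT1-203 was 79.5%, 0% and 68.3% across the BCSC libraries. Across the non-BCSC libraries it was 0%, 61.0% and 58.6%. How stably reads were assigned among similar transcripts was not tested. The coding bases that set the transcripts below apart are shown because they mark the exons between which the assigned counts divided. These bases were read from the GENCODE transcripts on GRCh37, and each is written 5′ to 3′ on the strand of the gene. For SUV39H2 (chr10:14920819-14946314, plus strand), SUV39H2-202 includes a second exon of 146 bases (chr10:14923499-14923644, in capitals between 15 bases of each neighbouring exon). SUV39H2-205, which is annotated as a target of nonsense-mediated decay, joins exon 1 straight to the next exon, and the capitals mark the bases on either side of that junction.
SUV39H2-202: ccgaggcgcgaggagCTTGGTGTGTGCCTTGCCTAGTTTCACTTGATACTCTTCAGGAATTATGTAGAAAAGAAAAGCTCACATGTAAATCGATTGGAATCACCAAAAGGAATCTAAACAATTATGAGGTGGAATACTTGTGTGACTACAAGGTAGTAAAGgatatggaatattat
SUV39H2-205: ccgaggcgcgaggaGGatatggaatattat
As 146 is no multiple of a codon's 3 bases, leaving the exon out shifts the reading frame, and the annotated coding sequence drops from 1230 bases in SUV39H2-202 to 135 bases in SUV39H2-205.

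For SUV39H1 (chrX:48553945-48567407, plus strand), both transcripts below have 6 exons, and their first exons start 1180 bases apart. The capitals are the coding bases of each first exon, at chrX:48554211-48554262 in SUV39H1-201 and at chrX:48555176-48555194 in SUV39H1-202, and the lower case bases are the shared start of the second exon.
SUV39H1-201: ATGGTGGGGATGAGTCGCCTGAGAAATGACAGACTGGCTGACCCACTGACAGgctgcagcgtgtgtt
SUV39H1-202: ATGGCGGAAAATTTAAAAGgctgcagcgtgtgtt
For EHMT2 (chr6:31847536-31865475, minus strand), the capitals are the coding bases of the first exon of EHMT2-203 (chr6:31865413-31865454) and the 42 coding bases of EHMT2-204 (chr6:31864767-31864808) that precede the same shared sequence.
EHMT2-203: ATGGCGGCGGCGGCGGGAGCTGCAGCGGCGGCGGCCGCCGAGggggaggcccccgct
EHMT2-204: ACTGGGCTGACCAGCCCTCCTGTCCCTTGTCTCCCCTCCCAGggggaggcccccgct

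SUV39H2-205, the transcript without exon 2, had 586, 374 and 599 counts in the BCSC libraries and 0, 1 and 0 counts in the non-BCSC libraries. It made up 48.5% ± 5.6 of the SUV39H2 count in BCSC and 0.05% ± 0.08 in non-BCSC (SD, n = 3 each), and the groups were far from overlapping. Summed over libraries and scaled by depth, it was 1071 times as abundant in BCSC, with a 95% counting interval of 192 to 42330, which covers counting error only. SUV39H2-202, the transcript with exon 2, drew 454, 464 and 535 counts from the BCSC libraries and 665, 670 and 458 from the others, or 46.1% ± 5.8 and 88.0% ± 12.1 of the gene (SD, n = 3 each). In the transcript fit, edgeR's quasi-likelihood test gave SUV39H2-205 an adjusted p of 0.0467 and SUV39H2-202 an adjusted p of 0.236.

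The transcripts of SUV39H1 with alternative first exons divided between the groups without overlap. SUV39H1-202 had 327, 121 and 61 counts in BCSC and none in the 3 non-BCSC libraries, at least 37.2-fold higher against a floor of 3 counts per library. SUV39H1-201 showed the opposite: it drew 30, 21 and 33 counts from the non-BCSC libraries and none from BCSC, which puts it at least 13.5-fold lower in BCSC. In non-BCSC the olfactory receptor background, taken per kilobase, was equal to 40.8%, 87.2% and 83.8% of the whole SUV39H1 count, so the SUV39H1-201 counts lay close to that background. Neither passed the transcript fit (edgeR adjusted p 0.0732 and 0.0678), and the remaining counts of BCSC 3 lay in SUV39H1-203, a retained-intron transcript with 79 counts there.

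EHMT2-204 drew 167, 175 and 142 counts from the non-BCSC libraries and none from BCSC; in the former it held 66.3% ± 13.1 of the gene's counts (SD, n = 3); it was at least 77.6-fold lower in BCSC (edgeR adjusted p 0.0467). EHMT2-203 had 980 counts in BCSC 1 and none in any other library, so BCSC replicates did not share a leading coding transcript. In BCSC 2 and BCSC 3 the EHMT2 counts lay instead in transcripts without an annotated coding sequence, with 235 and 173 counts for EHMT2-211 and 209 and 142 for EHMT2-212, a retained-intron transcript.

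SETDB1 transcripts varied widely within the groups. SETDB1-219 and SETDB1-220 carry 3 coding bases (chr1:150921843-150921845, in capitals) that SETDB1-201 lacks, shown because the counts moved between these near-identical transcripts from library to library.
SETDB1-220: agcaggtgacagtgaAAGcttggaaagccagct
SETDB1-201: agcaggtgacagtgacttggaaagccagct
The BCSC libraries gave SETDB1-201 182, 560 and 0 counts, and the non-BCSC libraries gave it 392, 409 and 0. For SETDB1-220 the BCSC libraries gave 549, 308 and 347 counts and the non-BCSC libraries 0, 0 and 325. SETDB1-219 drew 419, 0 and 249 counts from BCSC and none from non-BCSC, and did not pass the filter on low counts. The SETDB1-201 and SETDB1-220 counts overlapped between the groups (edgeR adjusted p 0.949 and 0.861). By contrast CBX5-201 held 97.7% ± 0.8 of the CBX5 count in BCSC and 97.0% ± 1.8 in non-BCSC (SD, n = 3 each), and TRIM28-201 held 95.8% ± 2.0 and 97.8% ± 0.9 of TRIM28, so these genes were each measured through a single transcript.

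Of 150 annotated transcripts of the 10 genes with a row, 125 had counts and 42 were tested. At an adjusted p under 0.05, 3 transcripts changed: SUV39H2-205 and CBX5-201 were higher and EHMT2-204 was lower, against 0.606% of all 46176 tested transcripts higher and 0.204% lower. SUV39H2-205 and EHMT2-204 also passed a 2-fold minimum, against 0.593% and 0.191% of all transcripts. The groups did not overlap for 9 tested transcripts that were higher in BCSC and 4 that were lower, where 17.6% of all tested transcripts were higher and 15.1% lower without overlap. All 3 calls were lost whichever library was left out, with adjusted p between 0.0668 and 0.233.

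**Figure D1:**
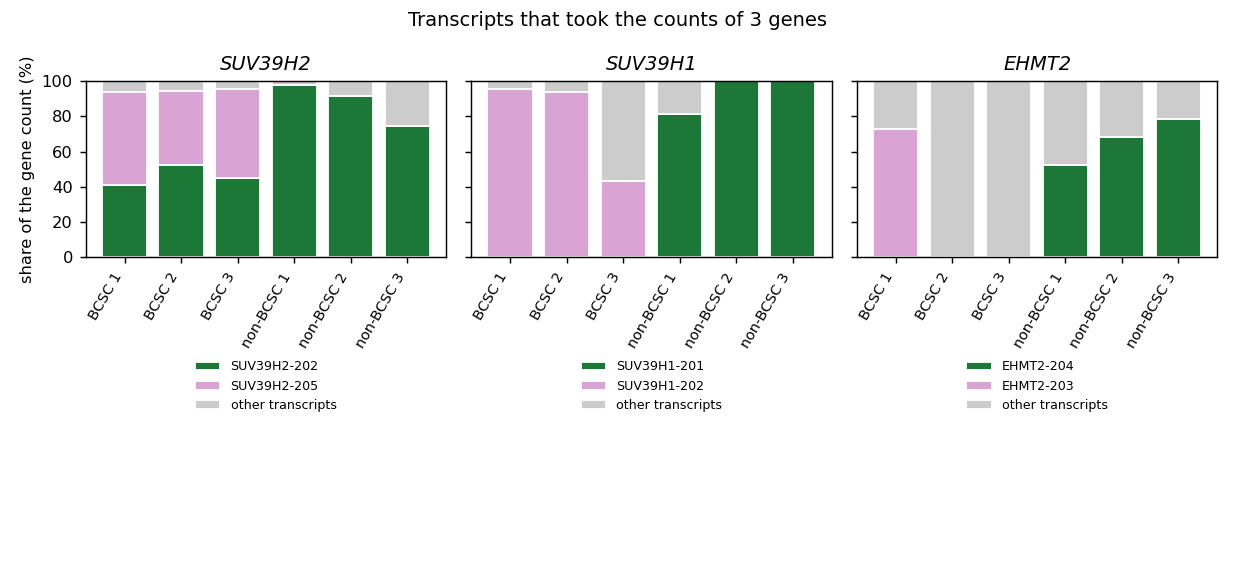
Share of each gene's counts (y axis, percent) carried by 2 named transcripts and by all others, in each of the 3 BCSC and 3 non-BCSC libraries (bars), for SUV39H2, SUV39H1 and EHMT2. SUV39H2-205 and SUV39H1-202 appear in all 3 BCSC libraries, SUV39H1-201 and EHMT2-204 in the 3 non-BCSC libraries, and EHMT2-203 in BCSC 1 only.

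Summed per gene, 5 of the 10 genes rose in BCSC at an adjusted p under 0.05 and none fell: CBX5, SUV39H1, TRIM28, EHMT1 and EHMT2. The background was 15.3% of all tested genes higher and 14.6% lower at that threshold. SUV39H1 and EHMT2 also passed a 2-fold minimum, against 8.85% of all genes called higher and 11.3% called lower. The median log2 fold change of the 10 genes was 0.65, beside −0.05 over all tested genes. The libraries of the groups did not overlap for 6 of the 10, these 5 and SETDB1, all higher in BCSC, where 24.2% of all genes were higher and 27.9% lower without overlap. As RNA was measured in bulk, fewer cells that use a gene and less RNA of it per cell cannot be told apart.

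**Figure D2:**
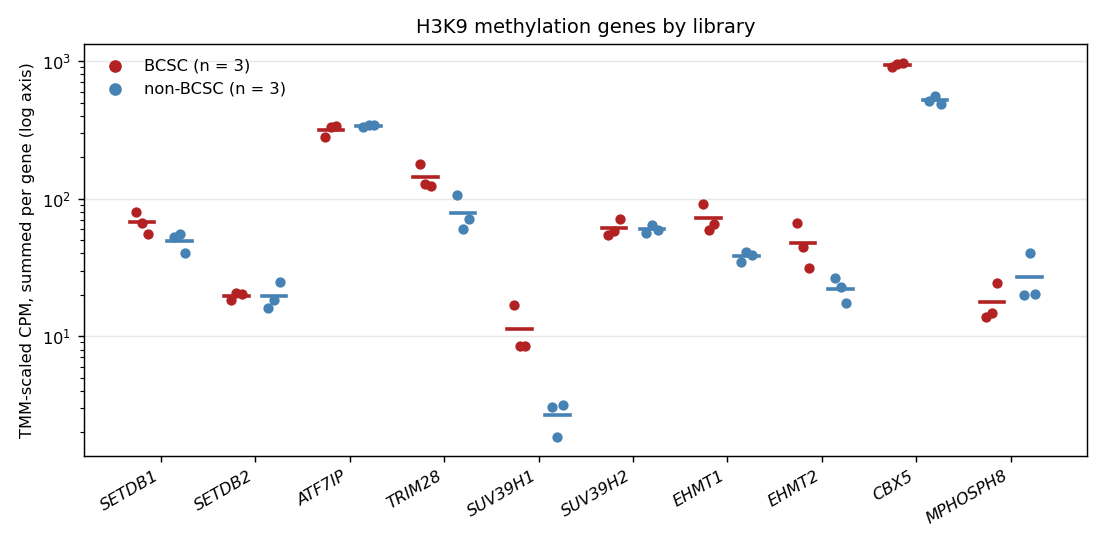
TMM-scaled CPM of the 10 genes (y axis, log scale) in each BCSC and non-BCSC library (points), with group means as bars (n = 3 each). CBX5, SUV39H1, TRIM28, EHMT1, EHMT2 and SETDB1 separate the groups, with BCSC higher, and the other 4 genes overlap.

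SETDB1 (chr1:150898739-150937220, plus strand), the H3K9 methyltransferase that the study takes up, stood at 80.3, 66.3 and 55.8 TMM-scaled CPM among the BCSC libraries, against 53.0, 55.0 and 40.3 CPM for non-BCSC. All BCSC values lay above all non-BCSC values, but the lowest BCSC and the highest non-BCSC library nearly met. The log2 fold change was 0.45 (SE 0.18), which did not pass the test (edgeR adjusted p 0.0910). It passed without a filter on low counts (0.52, adjusted p 0.0254) and after correction for GC content and length (0.75, adjusted p 0.0379), whereas removal of the olfactory receptor background gave 0.26 (adjusted p 0.306) and leaving out BCSC 1 gave 0.30 (adjusted p 0.297). Transcripts of CERS2 on the opposite strand overlap SETDB1 and held 890 counts, equal to 16.9% of the SETDB1 count, and whether counting used strand is not given in the sources used here.

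SETDB2 (chr13:50018410-50069139, plus strand), its relative with a split SET domain, was flat, at 18.2, 20.5 and 20.4 CPM in BCSC and 16.1, 18.3 and 24.8 CPM in non-BCSC (log2 fold change −0.00, SE 0.24, edgeR adjusted p 0.995). ATF7IP (chr12:14518610-14655865, plus strand), the partner that stabilises SETDB1, had 281, 332 and 336 CPM in BCSC and 332, 344 and 342 CPM in non-BCSC. The groups overlapped for ATF7IP, and its log2 fold change of −0.10 (SE 0.10) did not pass the test (edgeR adjusted p 0.462). After correction for GC content and length both genes were higher in BCSC, by 1.16 for SETDB2 (adjusted p 0.0048) and 1.19 for ATF7IP (adjusted p 0.0027), whereas removal of the olfactory receptor background put ATF7IP at −0.34 (adjusted p 0.0460).

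TRIM28 (chr19:59055431-59062089, plus strand), the corepressor that recruits SETDB1, rose, with 179, 128 and 123 CPM in BCSC and 106, 60.3 and 70.6 CPM in non-BCSC. Its log2 fold change was 0.86 (SE 0.22, edgeR adjusted p 0.0175), and the lowest BCSC library stood above the highest non-BCSC one. The call was lost without BCSC 1, non-BCSC 2 or non-BCSC 3 (adjusted p 0.0672, 0.0615 and 0.0652), and after correction for GC content and length the value turned to −0.16 (adjusted p 0.574). It also missed the threshold after removal of the olfactory receptor background (adjusted p 0.0512) and with protein-coding transcripts alone (adjusted p 0.0631).

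SUV39H1 had the largest log2 fold change of the 10 genes, 2.06 (SE 0.46, edgeR adjusted p 0.0107), and the lowest level in non-BCSC. The BCSC libraries held 342, 129 and 140 of its counts (16.8, 8.42 and 8.47 CPM), and the non-BCSC libraries 37, 21 and 33 (3.05, 1.86 and 3.16 CPM). In non-BCSC its counts per kilobase were only 2.45, 1.15 and 1.19 times those of the olfactory receptor genes, whereas in BCSC they were 184, 64.7 and 24.3 times as high. The call was lost without BCSC 1 (adjusted p 0.0691) and with protein-coding transcripts alone (1.70, adjusted p 0.0943). Correction for GC content and length gave 1.09 and removal of the olfactory receptor background 3.44.

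SUV39H2, its paralog, did not pass as a gene sum. The libraries had 54.7, 57.9 and 71.7 CPM in BCSC and 56.0, 64.6 and 59.0 CPM in non-BCSC, which overlapped, and the log2 fold change was 0.04 (SE 0.15, edgeR adjusted p 0.871). Counting only protein-coding transcripts, which leaves out SUV39H2-205, gave −1.07 (adjusted p 0.0129), whereas correction for GC content and length gave 1.74 (adjusted p 0.0004). Thus the direction of SUV39H2 depended on what was counted. Transcripts of DCLRE1C on the opposite strand overlap this gene and held 472 counts, equal to 9.06% of its count.

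The EHMT1 and EHMT2 pair rose together. EHMT1 (chr9:140513444-140764468, plus strand) had 91.8, 59.1 and 65.7 CPM in BCSC and 34.8, 41.0 and 39.1 CPM in non-BCSC, giving a log2 fold change of 0.91 with an SE of 0.19 (edgeR adjusted p 0.0078). EHMT2 had 66.2, 44.8 and 31.1 CPM in BCSC and 26.3, 22.7 and 17.4 CPM in non-BCSC, giving a log2 fold change of 1.10 with an SE of 0.28 (edgeR adjusted p 0.0189). Neither gene overlapped between the groups, though EHMT2 in BCSC spread over a more than 2-fold range. EHMT1 stayed past the threshold without any one library, and EHMT2 lost the call without BCSC 1, non-BCSC 2 or non-BCSC 3 (adjusted p 0.0780, 0.0561 and 0.0650). After correction for GC content and length both were near zero (0.06 and 0.07), and with protein-coding transcripts alone neither passed (0.71, adjusted p 0.158, and 0.12, adjusted p 0.973).

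CBX5 (chr12:54624726-54673917, minus strand) gave the tightest difference. It had 907, 952 and 974 CPM in BCSC and 513, 555 and 490 CPM in non-BCSC, or 944 ± 34.2 and 519 ± 32.7 CPM (SD, n = 3 each). The log2 fold change was 0.86 (SE 0.09, edgeR adjusted p 0.0005), and CBX5 passed the test under all 14 alternatives, between 0.63 and 2.14. MPHOSPH8 (chr13:20207799-20247581, plus strand) went the other way without passing, with 13.7, 14.8 and 24.6 CPM in BCSC and 19.9, 40.6 and 20.1 CPM in non-BCSC (log2 fold change −0.60, SE 0.35, edgeR adjusted p 0.211). Its groups overlapped and non-BCSC 2 was the highest library.

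**Figure D3:**
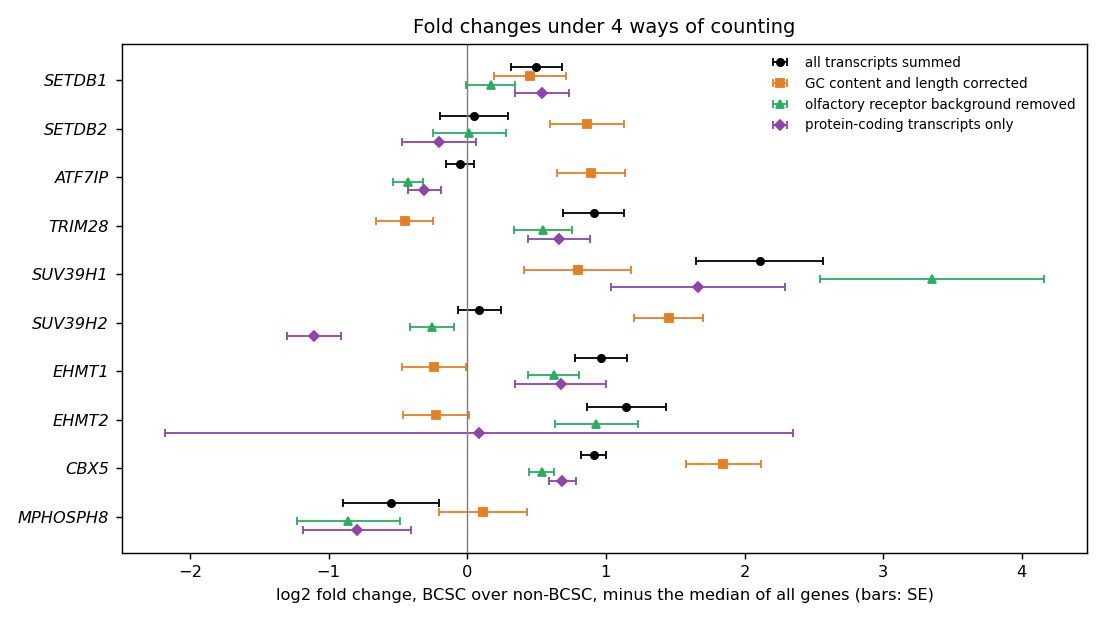
log2 fold change of each gene, BCSC over non-BCSC, minus the median of all genes (x axis), under 4 ways of counting (symbols; bars are the SE). CBX5, SUV39H1 and SETDB1 lie above zero in all 4, and TRIM28, EHMT1 and EHMT2 lie below zero once GC content and length are corrected. SUV39H2, SETDB2, ATF7IP and MPHOSPH8 also take both signs.

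The correction for GC content and length moved the median of all genes by 0.34 on the log2 scale, to 0.29. Relative to that median, CBX5 stood at 1.85, SUV39H2 at 1.45, ATF7IP at 0.89, SETDB2 at 0.86, SUV39H1 at 0.80, SETDB1 at 0.45 and MPHOSPH8 at 0.11, and EHMT2, EHMT1 and TRIM28 stood at −0.22, −0.24 and −0.45. The genes that dropped were GC-rich: GC content was 59.5% for TRIM28, 58.6% for EHMT2, 57.9% for SUV39H1 and 57.1% for EHMT1, against a median of 46.2% over all tested genes. ATF7IP, CBX5 and SUV39H2, which moved up, had 41.8%, 41.3% and 38.9%. As the correction is fitted on GC content, and fold change rose with GC content over all genes, this order is built into it. The correction would also remove a group difference that followed GC content.

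To compare levels between genes, counts were also expressed per length as TPM (counts per kilobase, scaled to the same sum in every library), summed per gene. In BCSC, CBX5 led with 238 ± 11.3 TPM, followed by ATF7IP with 147 ± 18.9, TRIM28 with 124 ± 24.9, EHMT1 with 76.1 ± 6.7, SETDB1 with 61.6 ± 10.9, SUV39H2 with 58.9 ± 8.6, EHMT2 with 44.5 ± 6.8, SUV39H1 with 15.8 ± 5.9, MPHOSPH8 with 14.4 ± 6.5 and SETDB2 with 8.84 ± 0.12 TPM (SD, n = 3). Of neighbours in this order, ATF7IP and TRIM28, EHMT1 and SETDB1, SETDB1 and SUV39H2, and SUV39H1 and MPHOSPH8 overlapped between libraries. In non-BCSC, ATF7IP led with 152 ± 17.8 TPM and overlapped CBX5 with 137 ± 1.0, while SUV39H1 was last with 2.86 ± 1.21 TPM (SD, n = 3).

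Ratios between partner genes within a library do not depend on how the libraries are scaled. They were taken without correction for GC content and length. Log2 fold changes so corrected were 1.09 for SUV39H1 and 1.74 for SUV39H2, 0.75 for SETDB1, −0.16 for TRIM28 and 2.14 for CBX5. These values go the opposite way for each ratio below whose groups did not overlap. With 3 against 3 libraries an exact two-sided permutation test cannot go below p = 0.1, and 6 ratios were compared. In the BCSC libraries SUV39H1 stood at 0.321, 0.172 and 0.304 of SUV39H2 TPM, against 0.0835, 0.0265 and 0.0347 in the non-BCSC libraries. The groups did not overlap, and the log2 difference was 2.59 (95% interval 0.99 to 4.19, exact p = 0.1, adjusted p = 0.2). In BCSC, EHMT1 stood at 1.70, 1.53 and 1.95 times EHMT2, against 1.27, 2.08 and 2.18 times in non-BCSC, with a log2 difference of −0.06 (95% interval −0.80 to 0.68, exact p = 0.8, adjusted p = 0.8).

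SETDB1 stood at 0.485, 0.521 and 0.493 of TRIM28 TPM in the BCSC libraries, against 0.602, 0.920 and 0.651 in the non-BCSC libraries, a log2 difference of −0.51 (95% interval −1.04 to 0.02, exact p = 0.1, adjusted p = 0.2). SETDB1 relative to ATF7IP (log2 difference 0.43, exact p = 0.3) and relative to SETDB2 (0.29, exact p = 0.4) overlapped between the groups. CBX5 was 13.1, 26.3 and 11.5 times SUV39H1 in BCSC and 34.1, 83.7 and 47.3 times in non-BCSC, a log2 difference of −1.70 (95% interval −3.16 to −0.23, exact p = 0.1, adjusted p = 0.2). The limits given above for SUV39H1 in BCSC 3 and in non-BCSC apply to this ratio too.

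**Figure D4:**
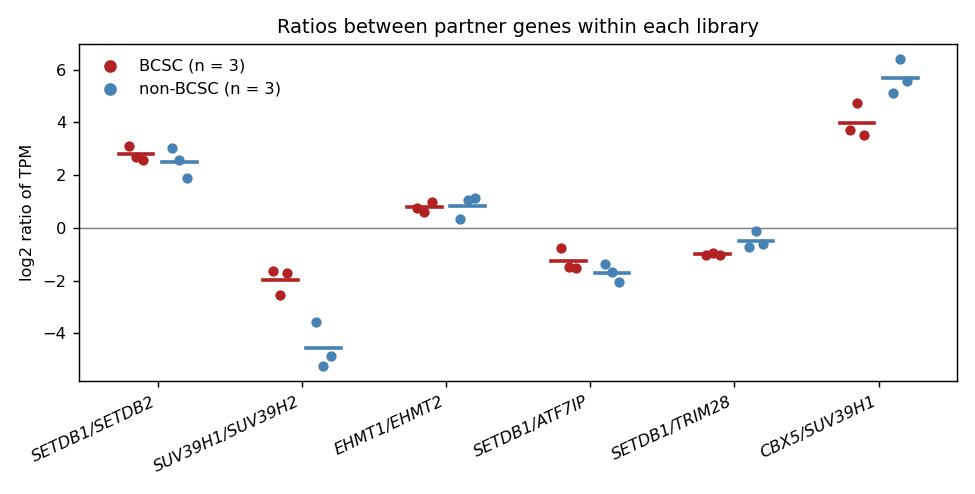
log2 ratio of TPM between 6 pairs of genes (y axis) in each BCSC and non-BCSC library (points), with group means as bars (n = 3 each). The groups separate for SUV39H1/SUV39H2, SETDB1/TRIM28 and CBX5/SUV39H1 and overlap for the other 3 pairs. No correction for GC content and length is applied.

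In the same fit, 42 further genes of H3K9 methylation and heterochromatin were read. At an adjusted p under 0.05, 11 rose, 9 fell and 22 did not pass, with a median log2 fold change of 0.33 beside −0.05 over all genes. At that threshold 15.3% of all tested genes were higher and 14.6% lower, which is the background for the counts per list below. Among 11 H3K9 demethylases, which remove the mark, 4 rose and 3 fell. JMJD1C (log2 fold change 0.55, SE 0.11, edgeR adjusted p 0.0069), PHF2 (0.91), KDM4A (0.54) and KDM3B (0.42) were higher, and KDM1A, the flavin-dependent demethylase LSD1, was lower (−0.37). KDM7A (−0.83) and KDM4C (−0.52) were also lower, but turned to 0.42 and 0.36 after correction for GC content and length. That correction also ended the calls of PHF2 (0.43, adjusted p 0.153) and KDM1A (−0.049, adjusted p 0.881), and removal of the olfactory receptor background those of JMJD1C (0.33, adjusted p 0.0504), KDM4A (0.34, adjusted p 0.166) and KDM3B (0.20, adjusted p 0.277). With 1 library left out, KDM4C lost its call in all 6 fits, KDM1A in 5, KDM7A, KDM4A and KDM3B in 4 each, and PHF2 in 1.

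Of 4 genes listed with HUSH and MORC2, only TASOR2, a paralog of the HUSH subunit TASOR, rose. It had 384, 413 and 400 CPM in BCSC and 240, 245 and 254 CPM in non-BCSC (log2 fold change 0.69). TASOR, PPHLN1 and MORC2 did not pass. Of 7 HP1 proteins and other readers, CDYL2 (1.29), MBD1 (1.37) and UHRF1 (0.95, but −0.02 after the GC and length correction) rose, and CBX1, the HP1β gene, fell (−0.32). The CBX1 call was lost with any library left out (adjusted p 0.0708 to 0.223) and after the GC and length correction (−0.024, adjusted p 0.940), which also took MBD1 to 0.29 (adjusted p 0.542). MBD1 further lost its call without BCSC 1, BCSC 2 or non-BCSC 2 (adjusted p 0.0945, 0.0637 and 0.0559). CDYL2, a chromodomain protein, had 46.5, 43.9 and 48.0 CPM in BCSC and 17.0, 17.0 and 22.7 CPM in non-BCSC, well apart.

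Of 9 further partners of SETDB1 and of the EHMT1 and EHMT2 pair, 1 rose and 2 fell. WIZ, a zinc finger protein of the G9a/GLP complex, rose, at 43.6, 27.3 and 16.8 CPM in BCSC and 9.57, 4.51 and 5.56 CPM in non-BCSC (log2 fold change 2.16, SE 0.41, edgeR adjusted p 0.0059). Per kilobase, WIZ stood at only 3.16, 1.14 and 0.861 times the olfactory receptor background in non-BCSC, and at 196, 86.2 and 19.7 times in BCSC. After correction for GC content and length WIZ stood at 0.60 and no longer passed (adjusted p 0.106). ATF7IP2, the paralog of ATF7IP, fell, at 0.148, 0.130 and 0.302 CPM in BCSC and 4.70, 2.03 and 2.01 CPM in non-BCSC (log2 fold change −3.86, SE 0.98, edgeR adjusted p 0.0175). These were 3, 2 and 5 counts against 57, 23 and 21, and per kilobase they were 1.71, 1.06 and 0.915 times the olfactory receptor background in BCSC and 3.99, 1.33 and 0.802 times in non-BCSC. The call was lost without BCSC 1, BCSC 2 or non-BCSC 1 (adjusted p 0.0708, 0.0758 and 0.0666). Corrected for GC content and length, ATF7IP2 stood at −2.62 (adjusted p 0.0511), and it was too low to be tested after background removal. HDAC2 fell (−0.64), but stood at 0.42 after correction for GC content and length.

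Of 8 chaperones, remodellers and lamina proteins of heterochromatin, CHAF1A (1.18), a subunit of the CAF-1 chaperone, and DAXX (0.91), an H3.3 chaperone, rose. The GC and length correction took them to 0.40 (adjusted p 0.156) and 0.17 (adjusted p 0.605), and DAXX lost its call without BCSC 1, BCSC 2, non-BCSC 2 or non-BCSC 3 (adjusted p 0.0845 to 0.130). LBR (−0.78), ATRX (−0.48) and LMNB1 (−0.46) fell, of which LBR and ATRX turned to 0.17 and 1.25 after the GC and length correction. With 1 library left out, LMNB1 and ATRX each lost the call in 4 of 6 fits, and LBR kept it in all 6. None of PRDM2, MECOM and PRDM16, for which H3K9 methyltransferase activity has been proposed, passed the test.

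**Figure D5:**
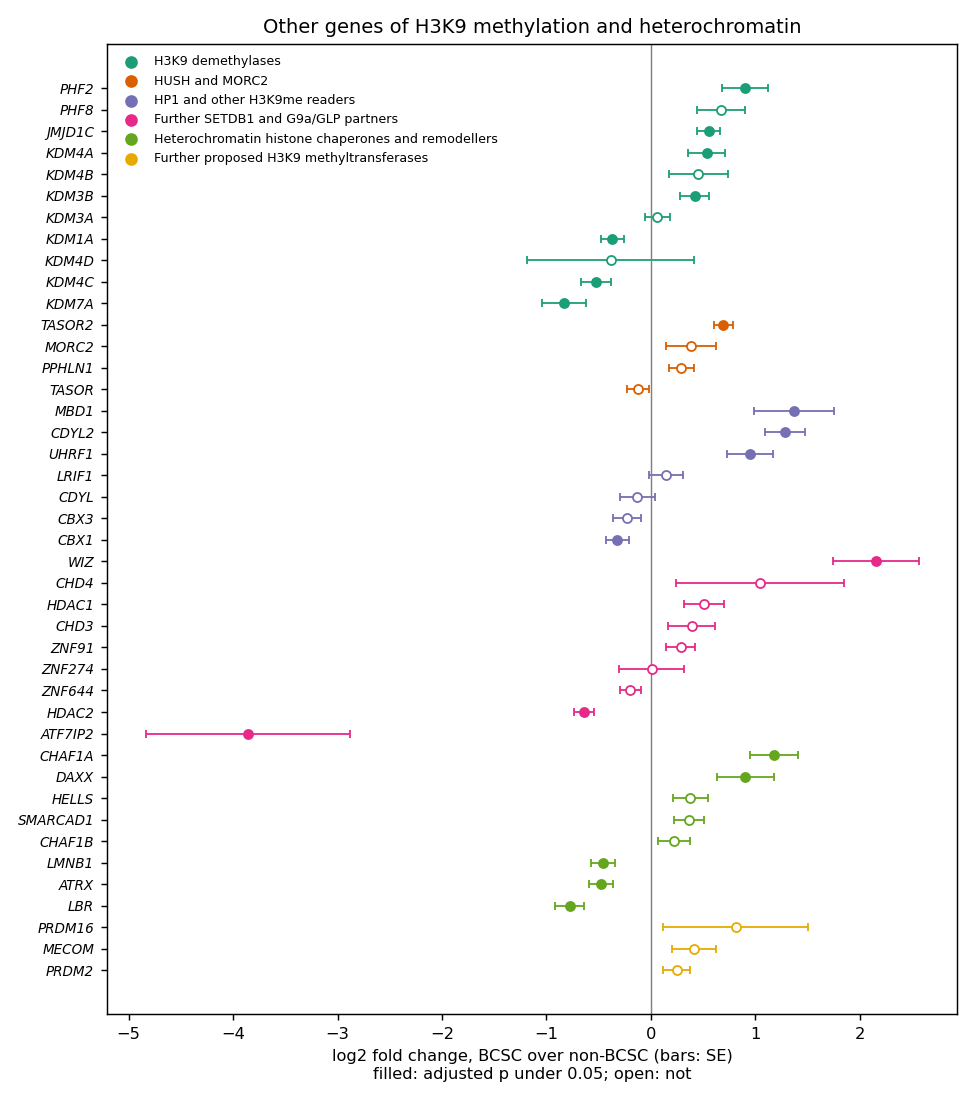
log2 fold change, BCSC over non-BCSC (x axis; bars are the SE), of 42 further genes of H3K9 methylation and heterochromatin, coloured by group; filled points have an adjusted p under 0.05. Of these genes 11 are filled and above zero and 9 filled and below, and KDM7A, KDM4C, UHRF1, HDAC2, LBR and ATRX change sign after correction for GC content and length, which is not applied in the plot.

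Across the 6 libraries, the 5 genes whose log2 CPM followed SETDB1 most closely, among 5660 genes that averaged 500 counts or more, were MAP2K1, SEC13, SPRY4, RNF10 and ZNF622, with Pearson's r between 0.988 and 0.995. These points share the libraries, their depth and the sort, and the values are given as a description.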

How the data were processed

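RNA of paclitaxel-resistant MDA-MB-231 cells was sequenced from strand-marked total RNA libraries. The deposited table holds whole-number counts per transcript for 6 libraries, made by the authors with HISAT2 and, per the labels, featureCounts, without versions. The processing notes name hg38 and DESeq2, the methods hg19; the annotation release is not given in the sources used here. Identifiers were matched to GENCODE release 44 mapped to GRCh37, so coordinates printed here are GRCh37, looked up by identifier. Of 252618 rows, 249616 (98.8%) matched; the 3002 others held 0.273% of counts and were left out. Counts were summed per gene. edgeR 4.0.16 (R 4.3.3) was run with TMM scaling, filterByExpr, robust glmQLFit and glmQLFTest, BCSC against non-BCSC, with Benjamini-Hochberg adjustment over 20442 genes or, for transcripts as deposited, 46176. Genes were called at adjusted p under 0.05 and a fold above 2; "rose" and "fell" need only the adjusted p. CPM are counts relative to the TMM-scaled library size. Ratios used exact permutation tests (scipy 1.17.1). Depth was 9898588 to 21215352 counts, and intervals and floors of 3 counts cover counting error only. Biological coefficients of variation were 0.453 for genes and 1.02 for transcripts.

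Alternatives were RLE scaling, DESeq2 1.42.0, other filters, a replicate block, offsets for GC content and length, subtraction of the counts per kilobase of 391 olfactory receptor genes, protein-coding transcripts alone, and leaving out each library. Named were all 10 genes, pathway genes at adjusted p under 0.05 (up to 4 in each direction per list) and the 5 genes most like SETDB1. Transcripts were taken from those with at least 10% of a gene's count in a group mean or called, and not all of these are described. Members and lists were chosen with earlier results of these data known. The fits were tested on simulated counts. A marker gene is not reported here. The equal replicate numbers did not pair the libraries.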

Additional observations from a re-analysis of the deposited data

How the results depend on the processing

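Among the 10 genes, 2 were called higher and 0 lower at an adjusted p under 0.05 and a fold above 2; 1 was called higher when at least 10 counts were needed in every library, 5 after correction for GC content and length, 0 higher and 1 lower (SUV39H2) with protein-coding transcripts alone, and 5 higher with no minimum fold. At an adjusted p under 0.05 without the fold, 5 were higher and 0 lower; with protein-coding transcripts alone 1 was higher (CBX5) and 1 lower (SUV39H2), and 1 was lower (ATF7IP) after removal of the olfactory receptor background. Leaving out 1 library gave 0 to 3 called higher and 2 to 5 higher without the fold. Of the 42 further genes, 11 higher and 9 lower became 18 and 1 after the GC and length correction, 7 higher after background removal and 6 higher with protein-coding transcripts alone; leaving out 1 library gave 6 to 13 higher and 2 to 7 lower. At an adjusted p under 0.05 and a fold above 2, the 20442 tested genes gave 1810 higher and 2307 lower. The GC and length correction gave 4342 and 1702 of 20442, and moved their median log2 fold change from −0.05 to 0.29. Background removal gave 1789 and 1081 of 16514. Protein-coding transcripts alone gave 909 and 735 of 13223, and 10 counts in every library 1383 and 1177 of 13216. Without the fold, 15.3% were higher and 14.6% lower in the main fit. The cause of these shifts was not tested.

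The GC and length correction reversed ATF7IP (1.19), TRIM28 (−0.16), MPHOSPH8 (0.41), KDM7A (0.42), KDM4C (0.36), UHRF1 (−0.023), HDAC2 (0.42), LBR (0.17) and ATRX (1.25). SETDB2, near zero, became 0.075 with no filter, 1.16 after the GC and length correction, 0.10 after background removal and −0.077 to 0.22 with 1 library left out. SUV39H2 became −0.054 with RLE scaling, −0.022 with DESeq2, −0.11 with 10 counts in every library, −0.17 after background removal, −1.07 with protein-coding transcripts alone and −0.095 to 0.14 with 1 library left out.

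Over all genes, the 1810 higher and 2307 lower calls became 1902 and 4771 in DESeq2, which tested 31411 genes. Of the transcripts, 1 higher and 1 lower became 7 and 2 in DESeq2 and 0 and 0 with any library left out. With protein-coding transcripts alone, the log2 differences of the ratios moved to 0.81 for SETDB1/SETDB2, 0.93 for SETDB1/ATF7IP, −0.028 for SETDB1/TRIM28 and −0.93 for CBX5/SUV39H1; EHMT1/EHMT2 gave none, as coding EHMT2 counts were 0 in BCSC 2 and BCSC 3. With 1 library left out, SETDB1/SETDB2 ranged from −0.010 to 0.55 and EHMT1/EHMT2 from −0.31 to 0.081.

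With the replicate number as a block, all transcript calls were lost (0 higher and 0 lower), SETDB1 passed (0.45, adjusted p 0.0292), SETDB2 stood at 0.019, and genes called changed from 1810 to 1994 higher and from 2307 to 2321 lower. The numbers do not pair the libraries: deviations of same-numbered libraries correlated at 0.18, 0.01 and 0.22 for replicates 1, 2 and 3, and BCSC 2 correlated best with non-BCSC 1. Low counts limit SUV39H1 in non-BCSC (21 to 37 counts).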
